A study of Mus musculus with 6 samples.

Results

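The genes described here are the 4 platelet-derived growth factor (PDGF) ligand genes Pdgfa, Pdgfb, Pdgfc and Pdgfd, the receptor genes Pdgfra and Pdgfrb, the receptor-like gene Pdgfrl, the hepatocyte growth factor gene Hgf and its receptor gene Met. These 9 genes were picked by symbol among the 28043 genes of the tables, and all 9 passed the filter on low counts. Polyadenylated RNA of primary mouse retinal pigment epithelium (RPE) cells was sequenced from mice with proliferative vitreoretinopathy (PVR, 3 libraries) and from normal mice (3 libraries). The study's title calls the disorder traumatic. The labels do not give strain, age, sex, the injury or the time after it, nor whether a library is 1 animal or a pool. The p-values therefore measure library-to-library spread only, and that spread may be technical.

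PDGFs and hepatocyte growth factor (HGF) are secreted proteins that act through receptor tyrosine kinases on the cell surface. PDGF chains pair into dimers: the A and B chains are secreted ready to bind, whereas the C and D chains must first be cut by proteases. The alpha receptor, encoded by Pdgfra, binds the A, B and C chains, and the beta receptor, encoded by Pdgfrb, binds the B and D chains. HGF is secreted as an inactive single chain, is activated by cleavage and binds the receptor MET. Both systems drive migration and proliferation, and both have long been studied in PVR, a scarring disorder in which cells form contractile membranes in the injured eye. RPE, the pigmented layer behind the photoreceptors, is one source of those cells.

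Between 15269983 and 17775427 reads per PVR library and between 15929388 and 19173187 per Normal library fell in genes. Each value is a normalised read count, that is, reads divided by 1 size factor per library. Each log2 change is the PVR mean minus the Normal mean of log2(normalised count + 1), a scale that makes changes of low-count genes look smaller. A gene is called when limma's Benjamini-Hochberg adjusted p over all 15766 genes tested is under 0.05. By that rule 30.8% of all genes tested were called, made up of 17.9% that were higher and 12.9% that were lower in PVR libraries. The RPE label held in both groups: the 14 RPE markers (Rpe65, Rlbp1, Ttr and others) summed to between 632397 and 699401 in PVR libraries, against 897580 to 971580 in Normal libraries, and 8 of them were lower in PVR. Ttr made up a large part of these sums, with 290275 to 313067 in PVR and 247884 to 275614 in Normal, and was not called. Without Ttr, a choice made after the values were seen, the sums were 331489 to 395121 in PVR and 649696 to 695966 in Normal. Best1 was low in both groups, at 15.6 ± 7.65 in PVR and 12.0 ± 1.64 in Normal. In bulk RNA, fewer cells of a type and less RNA per cell cannot be told apart, here and throughout. Leukocyte and fibroblast transcripts were present too, and their values are given beside the results they accompany.

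The promoter windows of the members whose levels the results turn on are shown first. Each spans 250 bases before to 50 bases after a RefSeq start site on GRCm38.p6 (the assembly also called mm10) and is written on the gene's own strand. Hgf and Pdgfra stand for members that were higher in PVR, Pdgfa for the member that was lower and Met for the most abundant member. Hgf and Pdgfa each have 2 RefSeq starts, and both windows are given. Capitals mark letters of the motifs searched on both strands, which were the TATA box TATAAA, the GC box GGGCGG, the AP-1 site TGANTCA and the NFAT core GGAAAA (the study's title names NFATc1).
Hgf, chr5:16553245-16553544, plus strand: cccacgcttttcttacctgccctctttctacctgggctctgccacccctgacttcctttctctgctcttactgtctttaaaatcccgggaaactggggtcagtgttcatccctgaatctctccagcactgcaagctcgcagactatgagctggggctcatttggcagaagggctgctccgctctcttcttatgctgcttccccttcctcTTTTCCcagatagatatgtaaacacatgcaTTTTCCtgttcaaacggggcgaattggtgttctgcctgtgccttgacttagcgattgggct
Hgf, chr5:16553651-16553950, plus strand: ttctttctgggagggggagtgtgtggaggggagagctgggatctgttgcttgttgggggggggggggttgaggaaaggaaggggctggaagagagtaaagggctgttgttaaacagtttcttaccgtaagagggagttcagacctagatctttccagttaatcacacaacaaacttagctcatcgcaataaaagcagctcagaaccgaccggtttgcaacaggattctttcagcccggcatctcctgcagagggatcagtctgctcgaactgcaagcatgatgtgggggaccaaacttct
Pdgfra, chr5:75152001-75152300, plus strand: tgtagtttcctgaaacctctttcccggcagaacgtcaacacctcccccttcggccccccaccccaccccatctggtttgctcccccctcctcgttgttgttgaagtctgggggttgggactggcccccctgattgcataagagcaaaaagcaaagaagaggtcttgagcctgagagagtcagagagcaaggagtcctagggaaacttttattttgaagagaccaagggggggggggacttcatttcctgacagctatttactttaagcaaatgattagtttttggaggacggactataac
Pdgfa, chr5:138994232-138994531, minus strand: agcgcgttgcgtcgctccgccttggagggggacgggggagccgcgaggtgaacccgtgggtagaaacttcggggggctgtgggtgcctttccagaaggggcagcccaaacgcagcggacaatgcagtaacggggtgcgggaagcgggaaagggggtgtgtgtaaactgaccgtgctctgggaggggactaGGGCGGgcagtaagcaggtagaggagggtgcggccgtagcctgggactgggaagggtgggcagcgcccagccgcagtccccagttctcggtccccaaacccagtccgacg
Pdgfa, chr5:138994895-138995194, minus strand: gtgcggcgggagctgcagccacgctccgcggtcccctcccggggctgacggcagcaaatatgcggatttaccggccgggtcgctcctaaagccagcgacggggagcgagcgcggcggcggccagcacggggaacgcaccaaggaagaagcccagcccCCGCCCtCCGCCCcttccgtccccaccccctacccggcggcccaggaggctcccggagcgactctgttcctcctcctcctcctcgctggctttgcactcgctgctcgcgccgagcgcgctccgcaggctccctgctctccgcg
Met, chr6:17463707-17464006, plus strand: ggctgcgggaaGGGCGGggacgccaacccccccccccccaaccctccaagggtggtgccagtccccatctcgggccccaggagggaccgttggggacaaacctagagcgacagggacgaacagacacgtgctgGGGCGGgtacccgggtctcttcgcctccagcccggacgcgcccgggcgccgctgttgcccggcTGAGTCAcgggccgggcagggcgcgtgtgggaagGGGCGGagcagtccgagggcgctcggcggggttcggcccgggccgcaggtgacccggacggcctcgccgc

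In base composition the Hgf and Pdgfra windows were 51.3%, 51.3% and 51.0% G or C, with 7, 6 and 5 CpG dinucleotides. The Pdgfa windows were 67.0% and 73.3% G or C with 24 and 37 CpGs, and the Met window was 75.7% with 34. The median over all 32851 RefSeq windows was 52.7%. The Met window held 3 GC boxes and 1 AP-1 site, and the Pdgfa windows held 1 and 2 GC boxes. The upstream Hgf window held 2 NFAT cores, both on the opposite strand, at positions -41 to -36 and -11 to -6 from the start. The other Hgf window and the Pdgfra window held none of these letters. Over all windows, 35.7% held a GC box, 7.81% an AP-1 site, 23.4% an NFAT core and 13.6% a TATA box, so such matches are common and describe the letters only. Windows were found for 6 of the 9 genes, including Pdgfc and Pdgfd. The Pdgfc window was 55.0% G or C and held 1 NFAT core, at positions -70 to -65 on the opposite strand, although Pdgfc was not called. The Pdgfd window was 56.7% G or C and held 1 TATA box, at positions -160 to -155. The genes without a window were Pdgfb, Pdgfrb and Pdgfrl. For Met and Pdgfd no transcript start of GENCODE M21, the annotation used for gene coordinates, lay within 50 bases of the RefSeq start. Motif positions are counted from the RefSeq start.

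Across the family, Pdgfra, Pdgfrl and Hgf rose and Pdgfa fell in PVR libraries, whereas Pdgfb, Pdgfc, Pdgfd, Pdgfrb and Met did not pass the test. That is 4 of 9 members called, 3 higher and 1 lower, beside the 30.8% of all genes called. All 3 PVR values lay above all 3 Normal values for 4 members, where 24.7% of all genes tested did so, and below them for 3 members, where 23.3% did. The median log2 change of the 9 members was 0.16, against -0.02 over all genes tested. With so few members these shares single out nothing about the family as a whole, and the results are those of its individual genes.

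**Figure D1:**
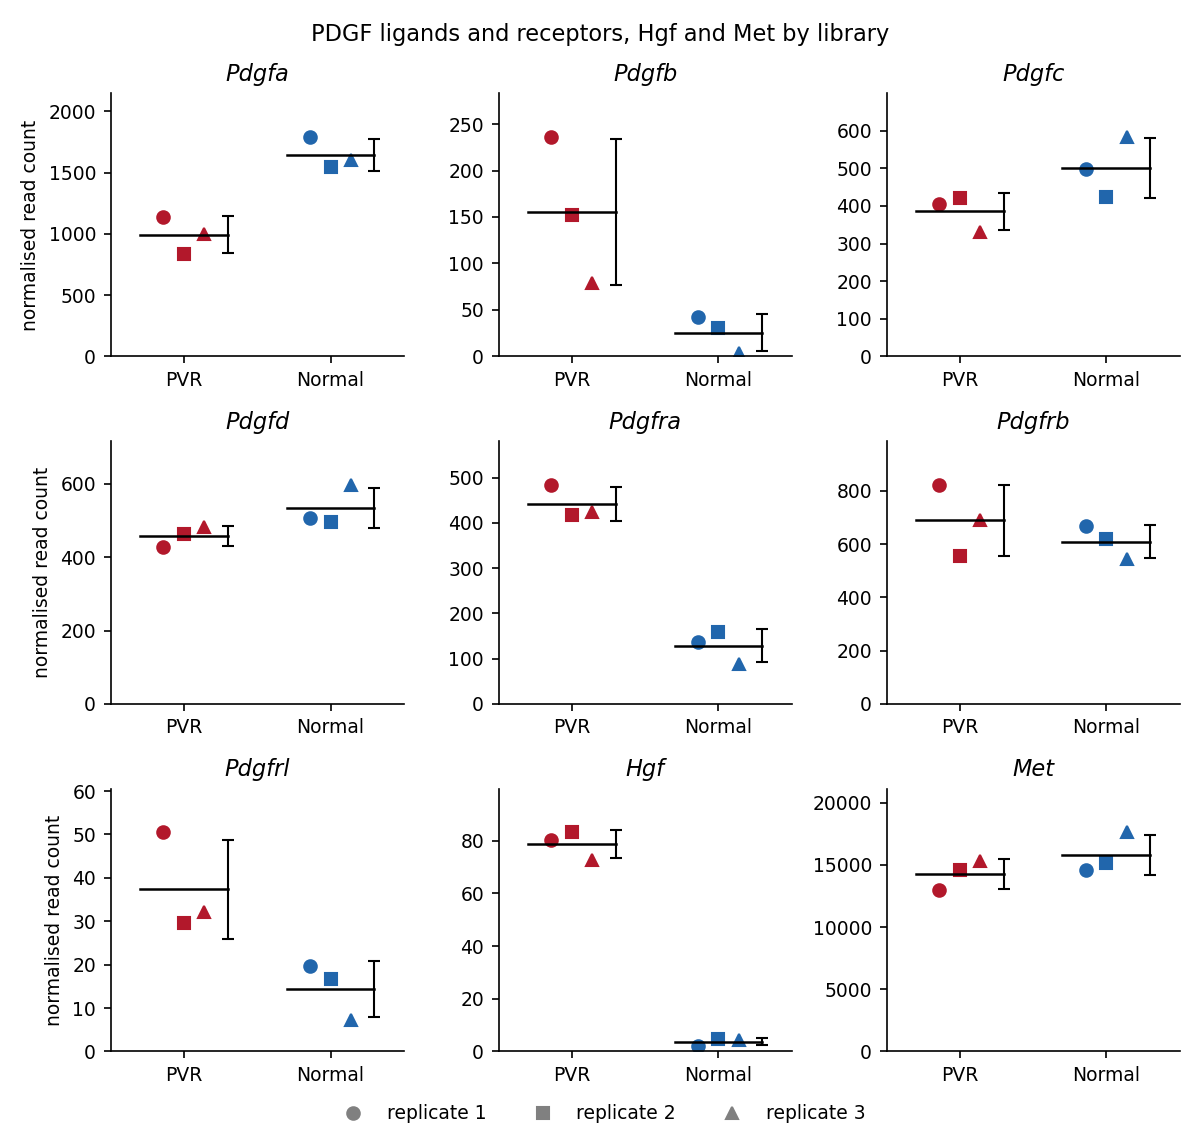
Normalised read count of each of the 9 genes (vertical axes, linear, from 0, a scale for each panel) in the 3 PVR libraries (left, red) and the 3 Normal libraries (right, blue). Symbols mark replicates, the horizontal line the mean and the bar 1 SD; Hgf, Pdgfra, Pdgfb and Pdgfrl have PVR values wholly above Normal, and Pdgfa, Pdgfc and Pdgfd wholly below.

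Pdgfa encodes the A chain, a ligand of the alpha receptor (chromosome 5, 138976014 to 138997370 on mm10). It had 1137, 838 and 1001 normalised counts in PVR replicates 1 to 3, against 1788, 1545 and 1599.6 in Normal replicates 1 to 3. The groups did not overlap, and the lowest Normal value was well above the highest PVR value. The means were 992 ± 149 in PVR and 1644 ± 128 in Normal (SD, n = 3 each), so Pdgfa was 1.66-fold lower in PVR. The log2 change was -0.74 (SE 0.13, 95% interval -1.02 to -0.45, limma adjusted p = 0.0022). An antisense gene, 6330403L08Rik, shares exon bases with Pdgfa and had 491, 364 and 469 normalised counts in PVR libraries and 398, 423 and 426 in Normal libraries. Use of strand in counting is not given, so reads of the shared bases cannot be told apart.

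Pdgfb encodes the B chain, which binds both receptors (chromosome 15, 79995874 to 80014977). Its values were 236, 153 and 78.4 in PVR libraries, against 42.3, 30.6 and 3.63 in Normal libraries, where replicate 3 rests on 4 reads. Every PVR library was above every Normal library, yet the values within each group spread widely. The means were 156 ± 78.7 in PVR and 25.5 ± 19.8 in Normal, a ratio of 6.11. The log2 change of 2.95 (SE 0.93, 95% interval 0.66 to 5.23) did not pass the test (limma adjusted p = 0.0604). Replicate numbers were taken to pair the libraries from the data, not from a stated design, as described with the processing. With that number as a block Pdgfb was called (limma adjusted p = 0.000536). On the recovered reads edgeR (adjusted p = 0.0476) and DESeq2 (adjusted p = 0.02) called it as well, but limma-voom did not (adjusted p = 0.0523). Over all alternatives its adjusted p ran between 0.000536 and 0.169, with 7 of 18 calling it. The log2 change was 1.95 without Normal replicate 3 (limma adjusted p = 0.0188) and 3.56 without Normal replicate 1 (limma adjusted p = 0.0436).

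The C and D chains are secreted in a latent form. Pdgfc (chromosome 3, 81036416 to 81214040) had 406, 421 and 331 normalised counts in PVR libraries and 498, 424 and 583 in Normal libraries. Its highest PVR value lay just under its lowest Normal value. The log2 change was -0.37 (95% interval -0.72 to -0.03) and did not pass the test (limma adjusted p = 0.0929). It was called under scaling to library totals, where the log2 change was -0.45 (limma adjusted p = 0.0331). Pdgfd (chromosome 9, 6168584 to 6378850) had 427, 464 and 483 in PVR libraries and 507, 497 and 597 in Normal libraries. Its log2 change was -0.22 (95% interval -0.49 to 0.05, limma adjusted p = 0.201). For both ligands the PVR libraries were the lower group without overlap, and the test did not separate the groups.

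Pdgfra, the alpha receptor, marks many stromal cells and is also made by glial precursors and retinal astrocytes (chromosome 5, 75152292 to 75198215). It had 484, 418 and 423 normalised counts in PVR libraries, against 137, 159 and 88.8 in Normal libraries. The PVR values were close to one another and all far above Normal. The means were 442 ± 36.7 in PVR and 128 ± 36.0 in Normal, a ratio of 3.44. The log2 change was 1.81 (SE 0.21, 95% interval 1.34 to 2.29, limma adjusted p = 0.000308). It was called under every one of the 18 alternatives, with log2 changes between 1.57 and 2.02.

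Pdgfrb, the beta receptor, is best known in pericytes and fibroblasts (chromosome 18, 61045150 to 61085061). It had 823, 556 and 690.4 normalised counts in PVR libraries and 668, 618 and 544 in Normal libraries. PVR replicate 2 lay below 2 of the Normal libraries, so the groups overlapped. Its log2 change was 0.16 (95% interval -0.18 to 0.51, limma adjusted p = 0.454). The interval leaves room for a rise of up to 0.51 on the log2 scale. The receptors are compared directly through their ratio in a later paragraph.

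Pdgfrl encodes a secreted protein with sequence likeness to the PDGF receptors but no kinase domain (chromosome 8, 40926212 to 40990785). It was a low-count gene, with 50.5, 29.6 and 32.1 normalised counts in PVR libraries and 19.6, 16.7 and 7.25 in Normal libraries. The values rest on 26 to 49 reads in PVR and 8 to 19 reads in Normal. The groups did not overlap, although PVR replicate 2 stood only moderately above Normal replicate 1. The log2 change was 1.37 (SE 0.44, 95% interval 0.38 to 2.37, limma adjusted p = 0.041). The call was lost without any single PVR library (limma adjusted p = 0.144, 0.0647 and 0.066 without PVR replicates 1, 2 and 3) and without Normal replicate 3 (0.111), where the log2 change was 0.97. It was also lost in 3 further alternatives.

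Hgf, a ligand made mainly by mesenchymal cells and also by myeloid cells, was near the detection limit in Normal libraries (chromosome 5, 16553495 to 16620152). It had 80.3, 83.1 and 72.7 normalised counts in PVR libraries, against 2.06, 4.63 and 4.53 in Normal libraries. These values rest on 78, 73 and 77 reads in PVR and on 2, 5 and 5 reads in Normal. The PVR libraries were closely alike, and each was far above every Normal library. The means were 78.7 ± 5.39 in PVR and 3.74 ± 1.46 in Normal, a ratio of 21.0. The log2 change was 4.12 (SE 0.40, 95% interval 3.23 to 5.01, limma adjusted p = 0.000126). It was called under all 18 alternatives. Because the Normal values are small, the added constant matters: the log2 change was 4.29 with 0.5 added and 3.27 with 5 added.

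Met, the HGF receptor, was the most abundant member in both groups (chromosome 6, 17463800 to 17573980). It had 12974, 14576 and 15320.1 normalised counts in PVR libraries and 14558, 15157 and 17599 in Normal libraries. The groups overlapped. Its log2 change was -0.14 (95% interval -0.41 to 0.13, limma adjusted p = 0.407). Met was called in none of the 18 alternatives (limma, edgeR or DESeq2 adjusted p between 0.197 and 0.759). The receptor transcript was thus abundant in both groups, and the interval of its change spans 0.

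**Figure D2:**
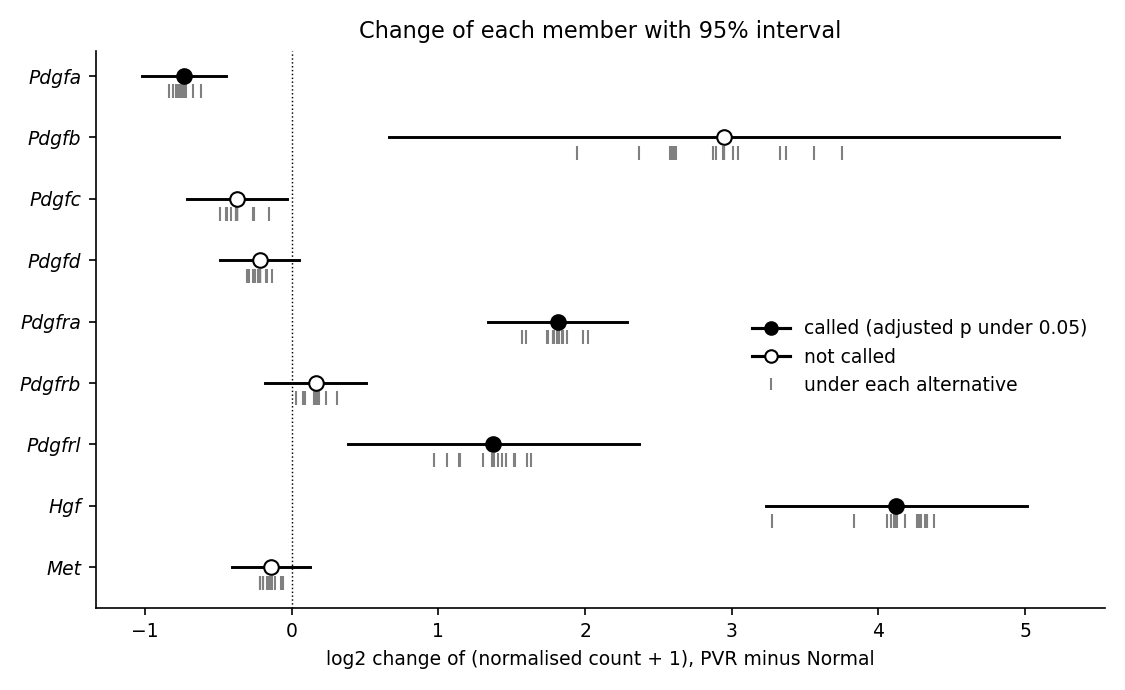
Log2 change of each gene, PVR minus Normal (horizontal axis), with its 95% interval from limma; filled circles are called (adjusted p under 0.05), open circles are not, and grey ticks give the value under each alternative setting. Hgf, Pdgfra and Pdgfrl lie above 0 and Pdgfa below it, while the interval of Pdgfb is the widest, 0.66 to 5.23.

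Markers of other cells moved in the same libraries. For comparison, 17.9% of all genes tested were called higher and 12.9% lower in PVR, with a median log2 change of -0.02. Of 18 macrophage and microglia markers, 17 were higher in PVR and 1 was lower, with a median log2 change of 4.70. Their summed level was 36714 to 91347 in PVR and 10722.5 to 12166 in Normal, where Csf1r alone had 9343 to 11181. Csf1r encodes a receptor kinase of the same structural class as the PDGF receptors, and it was the marker that was lower. Of 12 tested fibroblast markers, 9 were higher and 1 was lower, with a median log2 change of 1.43 and sums of 17428 to 26785 in PVR and 3709.5 to 5786 in Normal. No macrophage or fibroblast marker was at 0 throughout a group. Their part in the changes of Pdgfra, Pdgfb, Pdgfrl and Hgf was not tested.

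Pericytes, endothelial cells, platelets and glia also make or receive PDGF. Of 8 tested pericyte and smooth muscle markers, limma, edgeR and DESeq2 each called 2, and 6 had an unadjusted p under 0.05. Among all genes tested limma called 30.8%, so this count singles out nothing about these markers as a group. By limma Rgs5 and Des rose, Des on 13 to 28 reads in PVR and 5 to 11 in Normal. Among those not called, Cspg4 and Kcnj8 were lower (log2 changes -0.49 and -0.80), and Abcc9 and Vtn were higher (1.09 and 0.36). The markers summed to 2894 to 3670.2 in PVR and 2823 to 3345 in Normal, and Higd1b had no read in PVR. Endothelial cells are a known source of the B chain. Of 11 endothelial markers limma, edgeR and DESeq2 each called 0, and 1 had an unadjusted p under 0.05. The median log2 change of these markers was 0.54, against -0.02 over all genes tested. Their sum was 1715, 1140 and 1121 in PVR replicates 1 to 3 and 1190.4, 1341 and 375 in Normal replicates 1 to 3. Platelet markers summed to 64.9 to 92.7 in PVR and 69.8 to 87.6 in Normal, with Gp6 unread in PVR and Ppbp and Clec1b unread in Normal. Only 2 platelet genes could be tested, and neither was called (limma, edgeR and DESeq2 0 of 2, unadjusted 0). Of 7 tested astrocyte and Müller glia markers, limma and DESeq2 called Dkk3 higher and edgeR called 0. Dkk3 had 8452, 6661 and 7674 in PVR libraries and 633, 3597 and 1082 in Normal libraries. The markers summed to 38431 to 42811 in PVR and 33291 to 42576 in Normal, mostly from Glul and Dkk3, and without these genes, left out after the values were seen, to 1003 to 1175 in PVR and 943 to 1411 in Normal. Photoreceptor markers summed to 699 to 1472 in PVR and 606 to 1463 in Normal, and limma, edgeR and DESeq2 each called 0 of 10, with 1 at an unadjusted p under 0.05. Of 5 tested Schwann cell markers Mbp was higher and Sox10 lower, with sums of 7569 to 7886 in PVR and 8282 to 8765 in Normal. The median log2 changes of the pericyte, glia and photoreceptor lists were 0.34, 0.61 and 0.64. Those of the platelet and Schwann cell lists were -0.01 and 0.04. The part of all these cells in the members' changes was not tested.

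The relation between paired genes was then compared within each library as a log2 ratio of (normalised count + 1), which removes the size factor except for the added constant. For 3 against 3 libraries the smallest p that the exact two-sided permutation test can give is 0.1, so no pair could pass 0.05. The 4 pairs had Benjamini-Hochberg adjusted p of 0.133, 0.133, 0.133 and 0.5. The log2 ratio of Pdgfra over Pdgfrb was -0.76, -0.41 and -0.71 in PVR libraries and -2.28, -1.95 and -2.60 in Normal libraries. The difference was 1.65 (exact permutation p = 0.1), and the groups did not overlap. Every PVR library thus had more alpha receptor transcript relative to beta receptor transcript than any Normal library. Pdgfra was at least 418 in PVR and at most 159 in Normal, a wider ratio than the whole range of Pdgfrb, 544 to 823. Separate groups, and the smallest possible p, were therefore fixed by the values of the single genes.

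The log2 ratio of Pdgfa over Pdgfb was 2.26, 2.45 and 3.66 in PVR libraries and 5.37, 5.61 and 8.43 in Normal libraries, a difference of -3.68 (exact permutation p = 0.1). Without Normal replicate 3 that difference was -2.70. Every PVR library had less Pdgfa and more Pdgfb than any Normal library. Separate groups in this ratio, and the smallest possible p, were therefore fixed by the values of the single genes. The log2 ratio of Hgf over Met was -7.32, -7.44 and -7.70 in PVR libraries and -12.22, -11.39 and -11.64 in Normal libraries, a difference of 4.26 (exact permutation p = 0.1). The groups did not overlap for either pair. For Hgf over Met, too, this and the p were fixed by the single genes. Hgf was at least 72.7 in PVR and at most 4.63 in Normal, whereas Met ran only between 12974 and 17599. Pdgfc over Pdgfd gave -0.07, -0.14 and -0.54 in PVR libraries and -0.03, -0.23 and -0.04 in Normal libraries, which overlapped, with a difference of -0.16 (exact permutation p = 0.5).

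**Figure D3:**
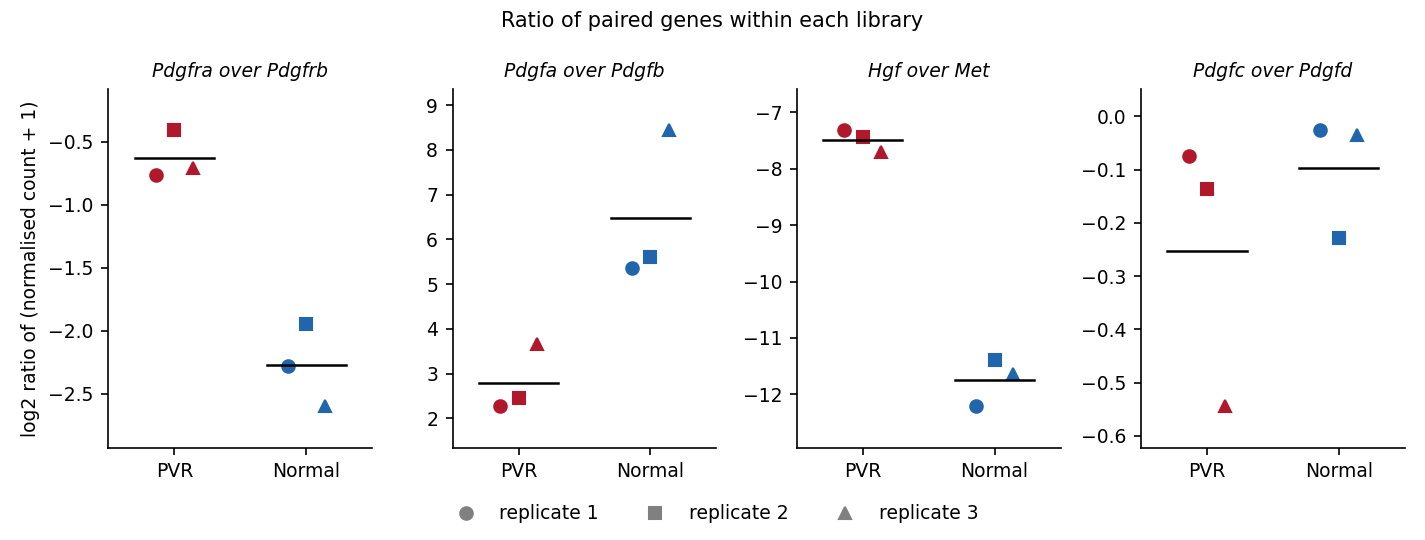
Log2 ratio of (normalised count + 1) between paired genes (vertical axes, a scale for each panel) in the 3 PVR libraries (left, red) and the 3 Normal libraries (right, blue); symbols mark replicates and lines the means. The groups are apart for Pdgfra over Pdgfrb, Pdgfa over Pdgfb and Hgf over Met, and overlap for Pdgfc over Pdgfd.

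To set the genes side by side, levels were divided by the length of their annotated exons in GENCODE M21. On this scale, normalised counts per kilobase, Met led with 1861 ± 156 in PVR and 2054 ± 210 in Normal. That placed it at percentile 98.1 in PVR and 98.3 in Normal among the tested genes that have an exon length in that annotation. Pdgfa came next, with 318 ± 47.9 in PVR and 527 ± 40.9 in Normal, followed by Pdgfd with 145 ± 8.91 in PVR and 169 ± 17.5 in Normal. Pdgfrb had 126 ± 24.4 and Pdgfc 75.8 ± 9.54 in PVR, against 111 ± 11.4 and 98.6 ± 15.6 in Normal. Pdgfra had 44.1 ± 3.66 in PVR and 12.8 ± 3.59 in Normal, and Pdgfb had 37.4 ± 18.9 in PVR and 6.12 ± 4.76 in Normal. Pdgfrl had 12.0 ± 3.64 in PVR and 4.64 ± 2.06 in Normal. Hgf stood last with 11.0 ± 0.75 in PVR and 0.52 ± 0.20 in Normal, where it was at percentile 0.87 of the tested genes with an exon length. The order of means was the same in both groups. Neighbours in that order whose libraries overlapped were Pdgfd and Pdgfrb, Pdgfra and Pdgfb, and Pdgfrl and Hgf in PVR, and Pdgfrb and Pdgfc, Pdgfra and Pdgfb, and Pdgfb and Pdgfrl in Normal. The isoforms in use are not known, so lengths and these levels are approximate.

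The make-up of the ligand and receptor pools followed from these levels. Pdgfa supplied 57.3%, 50.2% and 57.5% of the summed PDGF ligand level per kilobase in PVR libraries, against 68.1%, 66.6% and 62.7% in Normal libraries. Pdgfb supplied 8.91%, 6.85% and 3.38% in PVR libraries and 1.21%, 0.99% and 0.11% in Normal libraries. For both ligands the groups did not overlap. Pdgfd supplied 25.4% ± 3.55 in PVR and 21.2% ± 2.03 in Normal, and Pdgfc supplied 13.2% in PVR and 12.3% ± 1.51 in Normal, the PVR values running between 11.6% and 15.5%. Of the summed receptor level, Pdgfra made up 24.3%, 29.1% and 25.1% in PVR libraries and 10.1%, 12.4% and 8.19% in Normal libraries, so Pdgfrb was the larger part in every library. Shares of a sum are not independent of one another and were not tested.

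**Figure D4:**
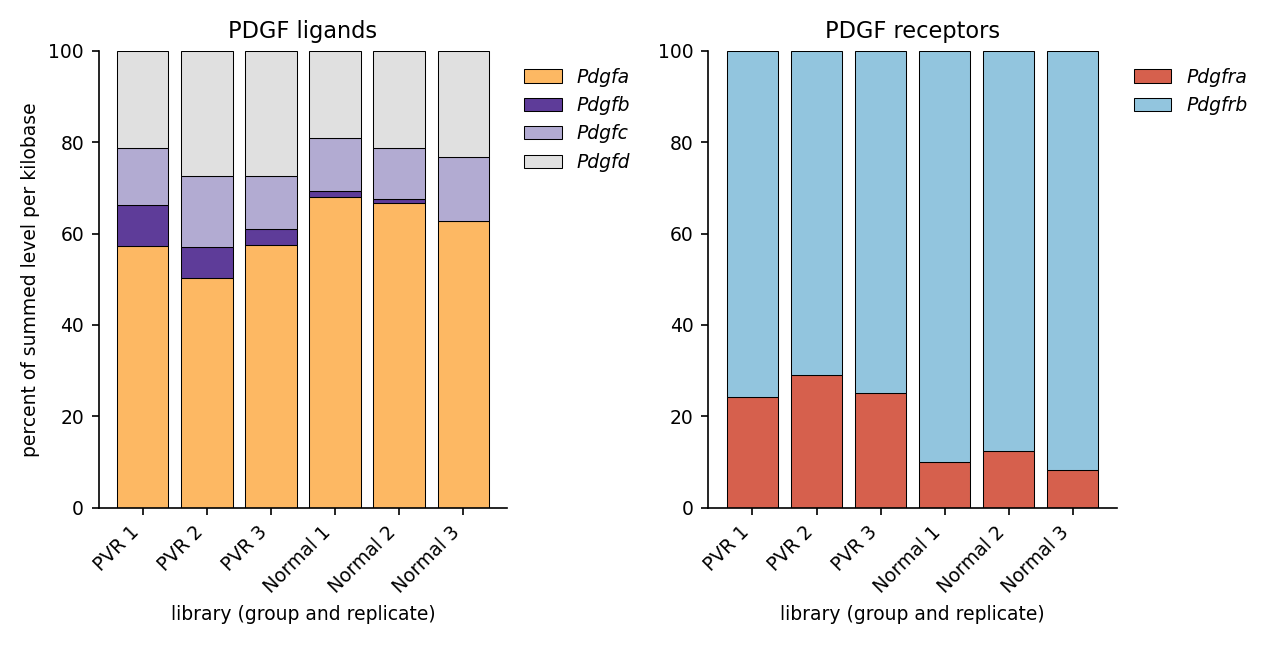
Percent of the summed level per kilobase (vertical axis, 0 to 100) that each PDGF ligand gene (left) and each PDGF receptor gene (right) supplied in the 3 PVR and 3 Normal libraries. Pdgfb has a visible share in PVR libraries (3.38% to 8.91%), and Pdgfra makes up 24.3% to 29.1% of the receptor sum in PVR against 8.19% to 12.4% in Normal.

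Genes that process or hold the ligands were taken from a list of 18, of which 16 were tested. Hgfac had too few reads and Plg was not analysed here. In PVR libraries 8 rose and 1 fell, beside 17.9% and 12.9% of all genes tested, with a median log2 change of 1.22, against -0.02 over all genes tested. The protease gene Plau (urokinase, which can activate HGF and the D chain) had 872, 732 and 372 normalised counts in PVR libraries and 88.6, 86.1 and 29.9 in Normal libraries (log2 change 3.32, limma adjusted p = 0.0055). Sparc, which encodes a matrix protein that binds PDGF, rose to 16151 on average in PVR, against 7877 in Normal (log2 change 1.03). Serpine2, an inhibitor of serine proteases, averaged 1113 in PVR and 503 in Normal (log2 change 1.14). A2m encodes alpha-2-macroglobulin, a protease trap that also carries growth factors, and it averaged 163536 in PVR and 10141.5 in Normal, a ratio of 16.1 (limma adjusted p = 1.72e-06). The convertase gene Pcsk5 was the list's gene that fell, with 182, 162 and 185 in PVR libraries and 256, 229 and 339 in Normal libraries (log2 change -0.62, limma adjusted p = 0.0252). That call was lost without PVR replicate 2, Normal replicate 1 or Normal replicate 3. Plat (tissue plasminogen activator, which cleaves the C chain), Plaur and Hpn also rose, with log2 changes of 1.15, 3.52 and 2.05. With replicates 1 and 2 only, 5 genes of the list rose. In that fit 2477 of all genes were called higher, against 2825 with all libraries.

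Co-receptors and proteins that end receptor signalling formed a list of 18 genes, all tested, of which 11 rose in PVR and the other 7 were not called, beside 17.9% of all genes tested that rose. The median log2 change was 0.61. Nrp1 encodes neuropilin 1, a co-receptor that also binds PDGFs, and it had 409, 663 and 353 normalised counts in PVR libraries and 106, 145 and 71.6 in Normal libraries (log2 change 2.13, limma adjusted p = 0.00146). The integrin alpha 6 gene Itga6 rose (log2 change 0.87), as did Lrig1, which encodes an inhibitor of receptor kinases including MET (1.33), and Ptpn1, which encodes a phosphatase that acts on receptor kinases (0.65). Cd44, a MET co-receptor in its variant forms, had a log2 change of 3.36 (limma adjusted p = 0.00772). Without PVR replicate 2, 7 genes of this list were called. In that fit 2193 of all genes were called higher, against 2825 with all libraries.

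The list of the intracellular relay shared by these receptors held 36 tested genes. In PVR 4 rose, 6 fell and the other 26 were not called, a share near the background of 30.8% called among all genes tested, so the counts show nothing about the relay as a group. The median log2 change was -0.02, as over all genes tested. Akt1 (log2 change 0.49), Fyn (1.09) and Stat3 (1.43) rose, though Stat3 was not called without the filter on low counts (limma adjusted p = 0.0501) or with replicates 1 and 2 only (0.0756). Nras was also called (log2 change 0.38, limma adjusted p = 0.0473), but its groups overlapped and the call was lost with the replicate block (adjusted p = 0.0558) and in 6 other alternatives. Spry1, a feedback inhibitor of receptor kinase signalling, had 482, 599 and 761 normalised counts in PVR libraries and 1644, 1435 and 1950.4 in Normal libraries (log2 change -1.46, limma adjusted p = 0.000501). Dusp6, a phosphatase that switches off ERK and is itself induced by ERK signalling, had 4059, 5475 and 4416 in PVR libraries and 8339, 7460 and 6393 in Normal libraries (log2 change -0.67, limma adjusted p = 0.00612). Both were lower in every PVR library than in any Normal library. Stat5b (-0.56), Src (-0.64), Pik3cb (-0.44) and Map2k1 (-0.53) also fell. The adaptor genes Grb2, Shc1 and Gab1 did not pass the test.

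A list of 15 genes known to be induced early by PDGF in fibroblasts had 9 that rose in PVR, beside 17.9% of all genes tested, with a median log2 change of 1.04. Myc had 725, 289 and 244 normalised counts in PVR libraries and 59.8, 66.7 and 54.4 in Normal libraries (log2 change 2.61, limma adjusted p = 0.00183). The chemokine genes Ccl7 and Ccl2 had log2 changes of 2.20 and 1.88, and Odc1, the ornithine decarboxylase of polyamine synthesis, of 0.70. The immediate early genes Fos, Egr1 and Ier2 were not called and their values in Normal were uneven. Normal replicate 2 had 11619 for Fos, against 45877 and 37350.1 in Normal replicates 1 and 3. Without that library all 3 were called lower in PVR, with log2 changes of -0.89 for Fos, -0.94 for Egr1 and -0.79 for Ier2. They are named because they became called in that fit. Junb, Fosb and Srf were not called with all libraries either, and had log2 changes of 1.04, 0.35 and -0.06 there. Without PVR replicate 2 the number of genes of this list that rose was 5. In that fit 2193 of all genes were called higher, against 2825 with all libraries. These genes respond to many stimuli other than PDGF. Across the ligand-processing, co-receptor and early-gene lists, the same libraries had 17 of 18 macrophage and microglia markers and 9 of 12 fibroblast markers higher in PVR, with median log2 changes of 4.70 and 1.43. The part of those cells in the lists' changes was not tested.

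**Figure D5:**
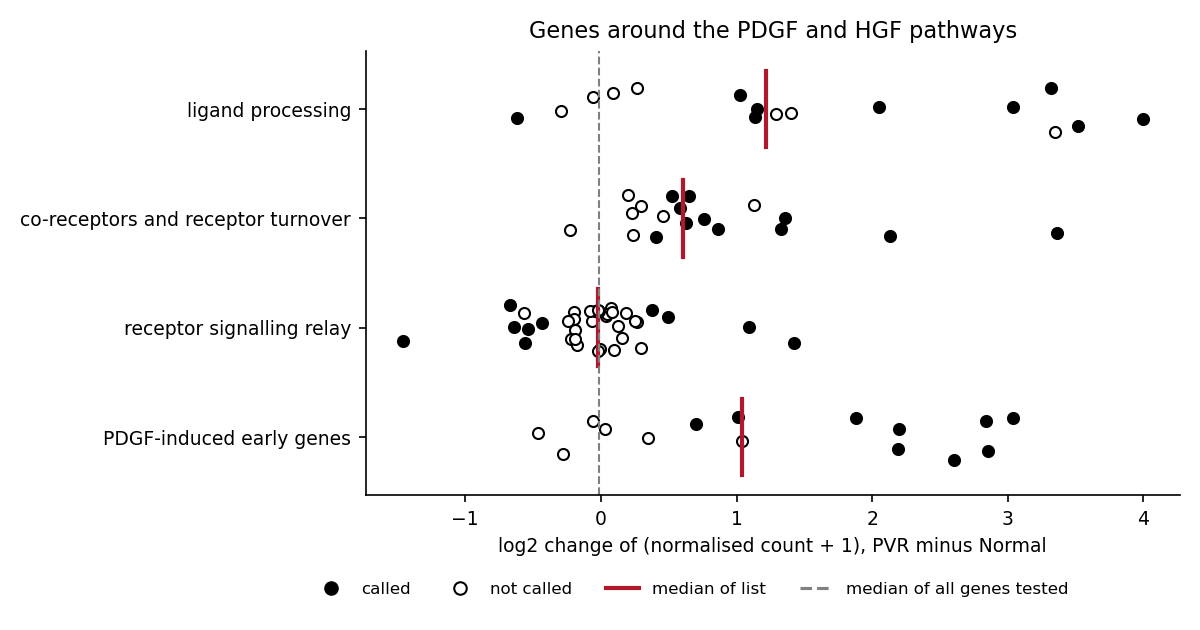
Log2 change, PVR minus Normal (horizontal axis), of each tested gene in 4 lists around the PDGF and HGF pathways; filled points are called and open points are not, with a small vertical scatter for legibility. Red bars mark each list's median and the dashed line the median of all genes tested; the relay list is centred on that line, with a median of -0.02.

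The genes whose profile over the 6 libraries was most like that of a member were found by the root mean square distance between centred log2 values. For Pdgfra these were Serping1, the C1 inhibitor of complement (distance 0.09), Eif4e3 (0.13) and Aox2 (0.14). Serping1 averaged 786 ± 131 in PVR and 243 ± 68.8 in Normal. For Hgf they were the centromere histone gene Cenpa (0.26), the cytokinesis gene Cep55 (0.28) and the interleukin 21 receptor gene Il21r (0.30), all farther away. Cenpa averaged 184 ± 45.2 in PVR and 10.9 ± 5.10 in Normal. For Pdgfb the nearest were the decoy interleukin receptor gene Il1r2 (0.21), Rgcc (0.35) and Gatm (0.37). Il1r2 averaged 66.4 ± 39.9 in PVR and 7.51 ± 5.93 in Normal. For Pdgfa they were Fam173a, Cdc14a and Wtip (0.05, 0.05 and 0.06), and for Met they were Napepld, Slc22a18 and Slc12a7 (0.02, 0.02 and 0.03). With 6 libraries in 2 groups such likeness is a description and says nothing of shared control.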

How the data were processed

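Polyadenylated RNA of primary RPE cells was extracted with TRIzol, per the labels' protocols, and the titles gave group and replicate number. What the authors deposited is a scaled signal for each gene: within each library all values (100%) were whole multiples of 1 step within 0.001 reads, so the authors had divided read counts by a size factor, and the reads were recovered. The submitters' processing notes name mm10 and DESeq2 but not what each was used for. Aligner, counter, strand setting and gene annotation: not given in the sources used here. No 2 libraries were duplicates (chi-square per gene at least 19.9). Of the names, 26 are dates and hold 0.102% of the reads.

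limma 3.58.1 (R 4.3.3) was run with intensity trend and robust moderation on log2(value + 1), for genes passing filterByExpr of edgeR 4.0.16 (minimum count 10). Count tests on recovered reads were alternatives: edgeR called 4706 genes (4682 shared with limma) and DESeq2 1.42.0 called 4824 (4616 shared, 22 adjusted p undefined). A further alternative on those reads, limma-voom, called 2740 genes higher and 1978 lower in PVR. Scripts were tested on simulated data. Same-numbered libraries deviated together from their group means (correlations 0.206, 0.195 and 0.179), so the numbers were taken to pair the samples, from the data and not from a stated design. The fit with the replicate block called 5328 genes. The main fit, its background shares and the permutation tests of the ratios did not use this pairing.

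Members and gene lists were chosen with earlier results of these data known. Named genes are all members, up to 4 called genes with the smallest p in each direction per pathway list, and the 3 nearest profiles of each member, without unnamed gene models. Cd44, Plat, Plaur, Hpn, Pik3cb, Map2k1, Grb2, Shc1, Gab1, Fos, Egr1, Ier2, Junb, Fosb and Srf were added after their values were seen. A result on 1 further gene is not reported here. Coordinates are from GENCODE M21, 1-based, and promoters from RefSeq (GRCm38.p6). Intervals cover the spread between libraries. Python 3.11.15, pandas 2.3.3, numpy 2.4.6 and matplotlib 3.10.9 were used.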

Additional observations from a re-analysis of the deposited data

How the results depend on the processing

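Pdgfa, Pdgfra and Hgf kept their direction and their call under all 18 alternatives, which covered the test, scaling, added constant, filter, pairing and left-out libraries. Pdgfd, Pdgfrb and Met were called under none, and no member changed sign. Pdgfb was called by edgeR (log2 change 2.61), by DESeq2 (2.62), with 5 added (2.59), with the replicate block (2.95, adjusted p = 0.000536) and with replicates 1 and 2 only (2.37). Leaving out 1 library gave it log2 changes between 1.95 and 3.56, with a call without Normal replicate 1 or 3, and leaving out Normal replicate 2 and PVR replicate 3 together gave 3.75 with no call. The block changed no other member's call. Under library total scaling Pdgfc was called (-0.45) and Pdgfrl was not (1.30), so that 2 members were lower. Pdgfrl also lost its call with replicates 1 and 2 only (1.06), without Normal replicate 2 and PVR replicate 3 together (1.61), and in 4 of the leave-one-out fits, whose log2 changes ran between 0.97 and 1.63. The cause of these changes in call was not tested. The difference in log2 ratio of Hgf over Met was 3.41 with 5 added. That constant exceeds each Normal value of Hgf. Genes called lower numbered between 1307 (without Normal replicate 1) and 2026 over the leave-one-out fits, against 2033 with all libraries, each such fit having fewer samples. Of 378 values for 21 pathway genes, 365 kept their call and 13 lost it, those of Nras, Pcsk5 and Stat3. Hgf and Pdgfrl in Normal rest on at most 19 reads per library, and 3 against 3 libraries limit the precision throughout.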

Other observations

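For the members that did not pass the test or rested on few reads, the genes with the nearest profiles were as follows. Pdgfrl lay nearest to Icam1, an adhesion molecule gene (root mean square distance 0.10), then to the scavenger receptor gene Scara3 (0.12) and to Pamr1 (0.13). Icam1 averaged 991 ± 393 in PVR and 381 ± 149 in Normal and was itself not called (limma adjusted p = 0.0546), whereas Scara3 averaged 256 ± 53.2 in PVR and 111 ± 40.4 in Normal and was called (limma adjusted p = 0.0128). Pdgfrb lay nearest to Parp10, Gli1, which encodes a transcription factor of hedgehog signalling, and Trp53rka (0.05, 0.05 and 0.06). Pdgfc lay nearest to AF357399, Nutf2-ps1 and the netrin G1 gene Ntng1 (0.07, 0.07 and 0.08), and Pdgfd to Pigq, Atmin and Tmco4 (0.03, 0.04 and 0.04).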
